A study of Canis lupus familiaris with 17 samples.

Results

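Tspan33 is a tetraspanin, one of a family of small proteins that cross the plasma membrane repeatedly and gather other membrane proteins into complexes. It was followed here through 1 transcript, XM_532430.3, out of 21571 transcripts measured in dog kidney epithelial cells. The gene was chosen by its fall in scribKD cells over control cells in these same libraries, so its differences between populations are given as a description, with no p-value.

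Tspan33 belongs to the TspanC8 subgroup, whose members bind the membrane protease ADAM10, carry it out of the endoplasmic reticulum and steer it towards particular substrates. ADAM10 cuts the outer parts off receptors and adhesion proteins, Notch and CD44 among them. In epithelial cells the junction proteins PLEKHA7 and PDZD11 hold Tspan33 with ADAM10 at the zonula adherens, the belt of adhesion that joins neighbouring cells. Outside epithelia, Tspan33 is known from red cell precursors and activated B cells.

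MDCK-II is a long-established epithelial line from dog kidney, and all libraries came from a derivative that carries a short hairpin RNA against scribble, a polarity gene, under tetracycline control. Control cells were this line without tetracycline (0 µg/ml), and scribKD cells were the same line given 10 µg/ml. ScribRES cells, also given 10 µg/ml, are an isolate of that line that resists being outcompeted by wild-type cells. All were plated at 1300000 cells per 10 cm dish and collected after 67 h. Replicates 1 and 2 came from experiment 1, replicates 3 and 4 from experiment 2, and replicates 5 and 6 from experiment 3. There were 6 control libraries and 6 scribKD libraries, and 4 scribRES libraries from experiments 2 and 3 only, all from 1 hairpin line and 1 resistant isolate. Control replicate 2 was sequenced in 2 runs, which were averaged and counted once. The labels do not say whether the 2 libraries of an experiment came from separate cultures. A figure legend of the study counts 3 biological replicates of control and scribKD cells and 2 of scribRES cells, as many as there were experiments. Its methods speak of at least 4 replicates in each condition. Unless stated otherwise, the fits here count every library as a replicate. Their errors and p-values measure the spread between these libraries, which may be technical.

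Levels are RPKM, which are reads scaled by transcript length and by the total of the run. The reads placed on transcripts ran from 12612664 to 29002703 per run, with 24817594 to 29002703 in experiment 1, 12612664 to 16847274 in experiment 2 and 18884443 to 22012608 in experiment 3. Scrib itself, the target of the hairpin, ran from 24.6 to 34.6 RPKM in control cells, from 9.75 to 16.2 in scribKD cells and from 12.2 to 14.8 in scribRES cells, so knockdown was present in both populations given tetracycline. Of 13 epithelial markers, 4 had a named transcript. Krt19, a keratin of simple epithelia, averaged 1469 RPKM and Ocln, the tight junction protein occludin, 33.5 RPKM in control cells, whereas Krt7 averaged 2.84 RPKM and Cdh16, a cadherin of kidney tubules, 3.14 RPKM. None of 12 B cell and erythroid markers had a named transcript, so the other cells known for Tspan33 were not checked.

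Tspan33 was most abundant in control cells. The control libraries held 20.4 and 22.7 RPKM in experiment 1, 45.8 and 44.6 RPKM in experiment 2, and 64.5 and 70.2 RPKM in experiment 3. Each experiment thus had its own control level, and the 2 libraries within an experiment lay close together. The ratio of highest to lowest over the 6 control libraries was 3.44, while libraries of the same population and experiment differed at most 1.12-fold.

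In scribKD cells Tspan33 was low throughout. These libraries held 9.14 and 9.15 RPKM in experiment 1, 16.03 and 15.0 RPKM in experiment 2, and 12.9 and 14.1 RPKM in experiment 3. All 6 lay below all 6 control libraries, since the highest scribKD library, at 16.03 RPKM, was under the lowest control library, at 20.4 RPKM. The scribKD level varied less than the control level, with a ratio of highest to lowest of 1.75.

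ScribRES cells split by experiment. They held 8.59 and 8.01 RPKM in experiment 2 and 26.1 and 24.5 RPKM in experiment 3. The first pair was lower than every scribKD library, and the second pair was higher than every scribKD library and higher than both control libraries of experiment 1. The ratio of highest to lowest in this population was 3.26.

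**Figure D1:**
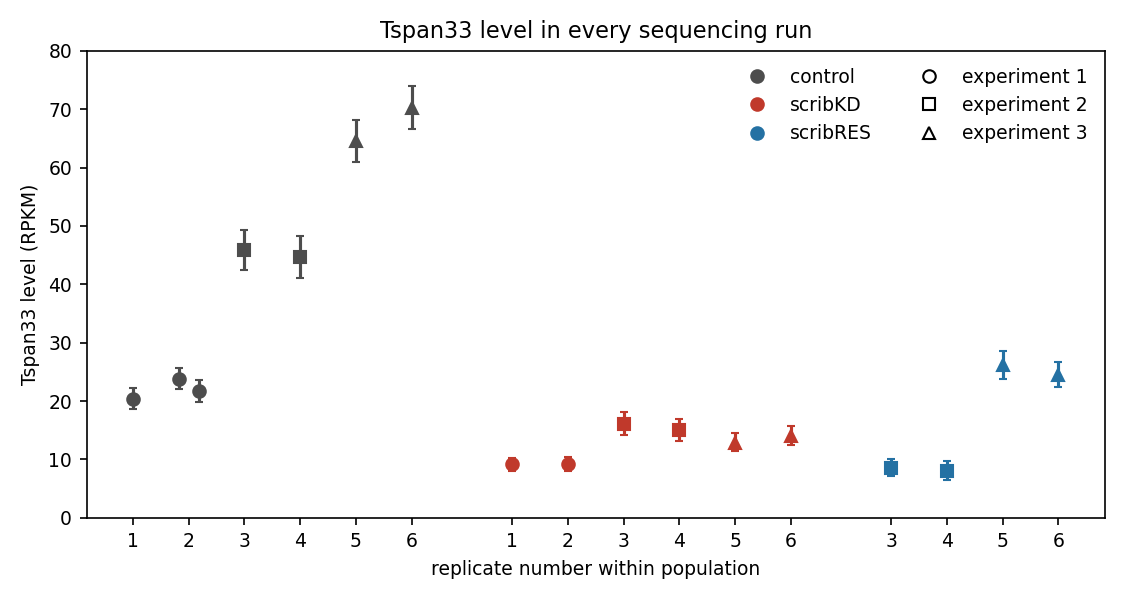
Tspan33 level in RPKM in each of the 17 sequencing runs, by population (colour) and experiment (symbol), with exact 95% Poisson intervals for counting error; both runs of control replicate 2 are drawn. Libraries of 1 population and experiment sit together, control cells climb from experiment 1 to experiment 3, and the scribRES pairs lie on either side of the scribKD libraries.

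Counting error was small beside these gaps. Between 98 and 1438 reads lay on Tspan33 in a run, fewest in scribRES replicate 4, whose 8.01 RPKM had an exact 95% Poisson interval of 6.50 to 9.76 RPKM. The interval of scribRES replicate 5 was 23.9 to 28.6 RPKM, and it did not meet that of either scribKD library of the same experiment, the higher of which ended at 15.7 RPKM. The runs of control replicate 2 gave 23.8 and 21.7 RPKM, with intervals that overlapped. These intervals cover counting error only.

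Averaged over libraries, Tspan33 was at 44.7 ± 20.6 RPKM in control cells (SD, n = 6), 12.7 ± 2.95 RPKM in scribKD cells (SD, n = 6) and 16.8 ± 9.85 RPKM in scribRES cells (SD, n = 4). The mean stood at percentile 85.0 of all transcripts in control cells, 62.5 in scribKD cells and 67.2 in scribRES cells. Control and scribKD cells did not overlap, but over all experiments the range of scribRES cells overlapped with that of control cells and enclosed all scribKD libraries. Within an experiment no 2 populations overlapped, as given below for each pair.

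The fall in scribKD cells, the contrast on which the gene was chosen, was a log2 fold change of -1.69 (SE 0.29), with the scribKD mean at 28.4% of the control mean. It ranked 4 by size of fall among 9691 transcripts tested, of which 9.52% were called changed (limma, adjusted p below 0.05 with a log2 fold change beyond 0.5 either way). Nothing is read from this rank, because the gene was chosen for it. Its size differed by experiment: the log2 fold change was -1.23 in experiment 1, -1.54 in experiment 2 and -2.31 in experiment 3. The scribKD level was therefore 42.4% of control in experiment 1, 34.3% in experiment 2 and 20.01% in experiment 3. Across these experiments it was mainly the control level that moved, from a mean of 21.6 to 67.3 RPKM, against 9.14 to 15.5 RPKM in scribKD cells.

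Against control cells, scribRES cells were lower in both experiments in which they were measured. The log2 fold change was -2.43 in experiment 2, at 18.4% of control, and -1.41 in experiment 3, at 37.6% of control. Over all libraries it was -1.47 (SE 0.45), and it was -1.92 with experiment as a block, since the control libraries of experiment 1, the lowest of that population, have no scribRES partner. Neither population kept its libraries within 2-fold of each other, so Tspan33 did not pass the filter for this comparison.

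Against scribKD cells, scribRES cells showed opposite differences. In experiment 2 both scribRES libraries were below both scribKD libraries, with a log2 fold change of -0.89 (SE 0.07). In experiment 3 both were above, with a log2 fold change of 0.91 (SE 0.08). Pooled, these gave 0.22 (SE 0.35), and 0.01 with experiment as a block, a value near 0 that describes neither experiment.

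**Figure D2:**
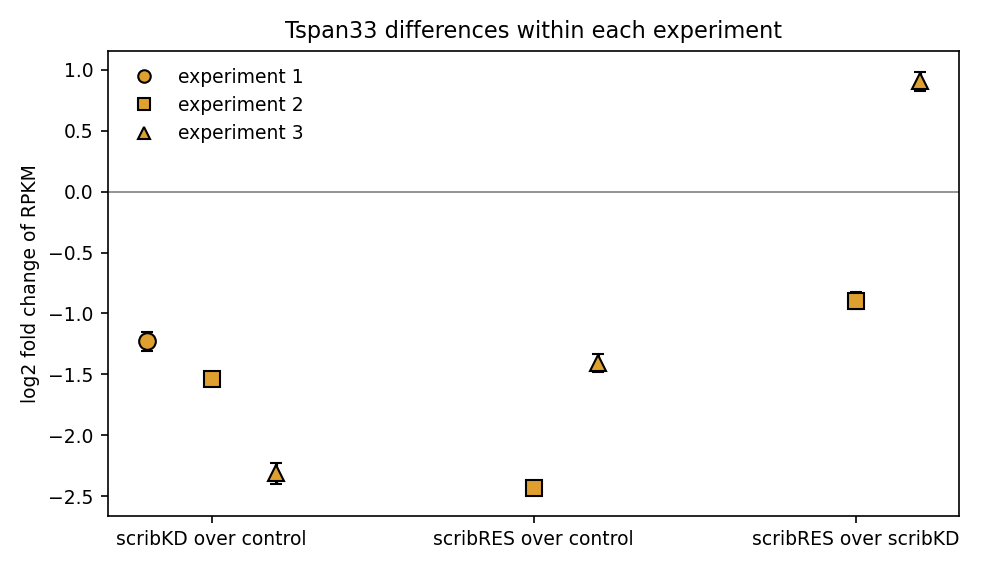
Log2 fold change of Tspan33 between populations within each experiment, with the standard error from 2 libraries in each population. ScribKD over control and scribRES over control are below 0 in every experiment measured, and scribRES over scribKD is at -0.89 in experiment 2 and at 0.91 in experiment 3.

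For Tspan33 the log2 fold change of scribRES over scribKD was 1.80 higher in experiment 3 than in experiment 2 (SE 0.11, 2 libraries in each population and experiment). This change was looked at because the opposite differences had been seen, and its scribKD libraries also chose the gene, so it is given as a description with no p-value. Changes of this kind were common in limma over 10632 transcripts, since 18% were called, 1054 upwards and 856 downwards, or 818 upwards and 1029 downwards after median-ratio scaling. The Tspan33 value after that scaling was 1.74. By size it was the 17th largest increase, and 50 transcripts moved as far in either direction. A switch from below to above scribKD cells in all libraries was shown by 1036 transcripts (9.74%), but only 35 (0.329%) passed 0.5 on the log2 scale on both sides, as Tspan33 did. Each experiment enters once, so errors and p-values of this change rest on the spread between the 2 libraries of an experiment and not on repeated experiments.

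**Figure D3:**
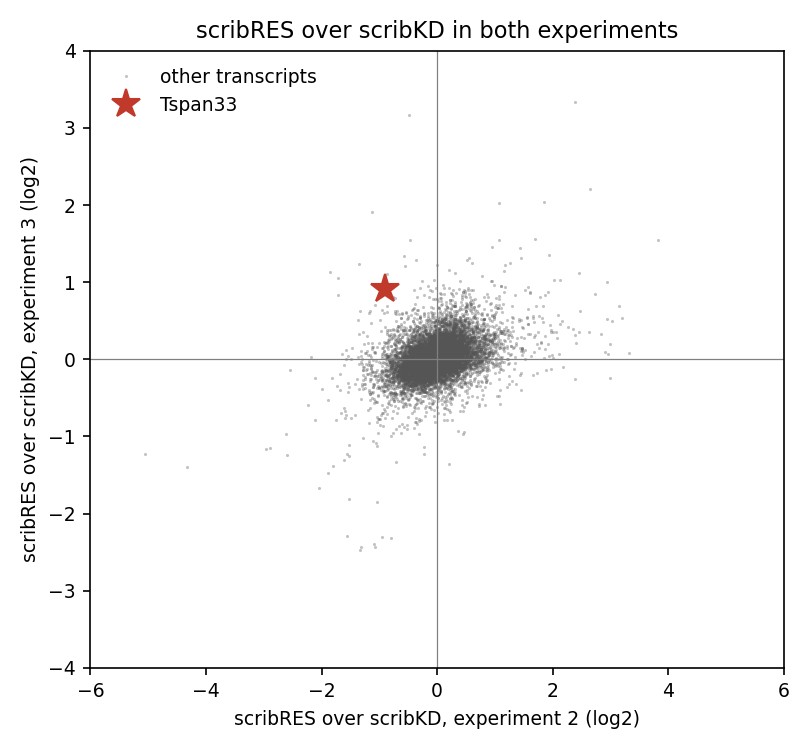
ScribRES over scribKD (log2 fold change) in experiment 2 (horizontal) and experiment 3 (vertical) for the 10632 transcripts tested, 1 grey point each. Tspan33 (star) lies at -0.89 and 0.91, at the edge of the cloud on the side where scribRES cells were lower in experiment 2 and higher in experiment 3.

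Taken over the 3 populations, Tspan33 was higher in experiment 3 than in experiment 2 by 0.66 on the log2 scale (SE 0.22, limma with population as a covariate, adjusted p = 0.0243, 6 libraries in each experiment). In this comparison 17.5% of transcripts were called. Here too each experiment enters once, so the p-value compares libraries and does not rest on repeated experiments. The control and scribKD libraries of this fit also chose the gene, though by another contrast, so the p-value is a description and not an independent test. The fit gives all populations the same shift, so its error also holds their differences in that shift. The populations did not move alike: the log2 difference was 0.57 in control cells and 1.60 in scribRES cells, where both libraries of experiment 3 were above both of experiment 2, and it was -0.20 in scribKD cells, where both were below. Without scribRES replicate 3, 4, 5 or 6 the adjusted p was 0.0542, 0.0537, 0.0533 or 0.0549, so the call depended on each of those libraries. From experiment 1 to experiment 2, where no scribRES cells were measured, the log2 difference was 1.07 in control cells and 0.76 in scribKD cells. Sequencing depth also differed between experiments, as given above, and its part in these differences was not tested.

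Other tetraspanins did not follow 1 pattern. Of 33 family members listed, 7 including Tspan33 had a named transcript. Most names came from the tables of changed transcripts that the study drew up on these samples, so the members seen here are not an independent sample of the family. Of the other members, Tspan8, Tspan12 and Cd81 were tested, and 2 of these 3 were called in scribKD over control, 1 in each direction, where 9.52% of all transcripts were, with a median log2 fold change of 0.38 against 0.02 over all transcripts tested. Both calls were lost on experiment means, with an adjusted p in limma of 0.0594 for Cd81 and 0.107 for Tspan12. In scribRES over scribKD none of the 3 was called by limma, where 1.46% of all transcripts were, although 1 was called without scribKD replicate 6. Their median there was -0.42 against 0.01 over all transcripts tested.

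Cd81, a tetraspanin that partners integrins and immunoglobulin-family proteins, fell with Tspan33. It held 69.2 to 93.3 RPKM in control cells, with a median of 80.1, and 37.4 to 52.6 RPKM in scribKD cells, with a median of 50.5, so the populations did not overlap. The log2 fold change was -0.76 (SE 0.11, limma, adjusted p = 0.000252). Its scribRES libraries held 41.4 and 44.1 RPKM in experiment 2 and 66.2 and 62.9 RPKM in experiment 3, below and then above the scribKD libraries of the same experiment, as for Tspan33. The change in scribRES over scribKD between experiments was 0.54 (SE 0.09, limma, adjusted p = 0.000821), close to the limit of 0.5, and it was under that limit after median-ratio scaling, at 0.48, and without scribRES replicate 3, at 0.49. Cd81 also fell in scribRES cells over control cells, by 0.59 on the log2 scale (limma, adjusted p = 0.0215), in a comparison where 7.89% of transcripts were called. That call was lost without scribRES replicate 3 (adjusted p = 0.0746) or replicate 4 (adjusted p = 0.0789). It was also lost on experiment means, where no transcript was called in this comparison.

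Tspan12, known for its part in Norrin and Frizzled-4 signalling in retinal vessels, rose where Tspan33 fell. It ranged from 34.6 to 56.0 RPKM in control cells, with a median of 41.8, and from 59.1 to 82.5 RPKM in scribKD cells, with a median of 70.2, again without overlap. Its log2 fold change was 0.69 (SE 0.13, limma, adjusted p = 0.00235). In scribRES cells it held 48.4 to 55.2 RPKM, below every scribKD library. The pooled log2 difference of scribRES over scribKD was -0.46, with an adjusted p of 0.0568 in limma. Tspan8, a tetraspanin of gut and kidney epithelia, was at 26.4 ± 3.95 RPKM in control cells, 34.7 ± 7.34 RPKM in scribKD cells (SD, n = 6 each) and 25.5 ± 2.25 RPKM in scribRES cells (SD, n = 4). It passed the test in none of the 3 comparisons of populations (limma).

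Tspan15 is the only other TspanC8 member with a named transcript, and like Tspan33 it binds ADAM10. It held 14.6, 16.7, 10.1, 7.35, 28.2 and 25.3 RPKM in control replicates 1 to 6, and 6.43, 6.09, 5.88, 5.23, 12.7 and 14.6 RPKM in scribKD replicates 1 to 6. In scribRES replicates 3 to 6 it held 9.96, 9.23, 27.8 and 24.9 RPKM. Within each experiment its scribKD libraries were below its control libraries, as for Tspan33. Its scribRES libraries were above the scribKD libraries in both experiments, which differs from Tspan33 in experiment 2. None of its populations kept within the 2-fold limit, so it was not tested. Tspan1 was lower, at 5.24 ± 3.21 RPKM in control cells, 2.09 ± 1.22 RPKM in scribKD cells (SD, n = 6 each) and 2.45 ± 1.74 RPKM in scribRES cells (SD, n = 4), and was not tested. Prph2, the photoreceptor tetraspanin peripherin, averaged under 0.1 RPKM in each population.

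**Figure D4:**
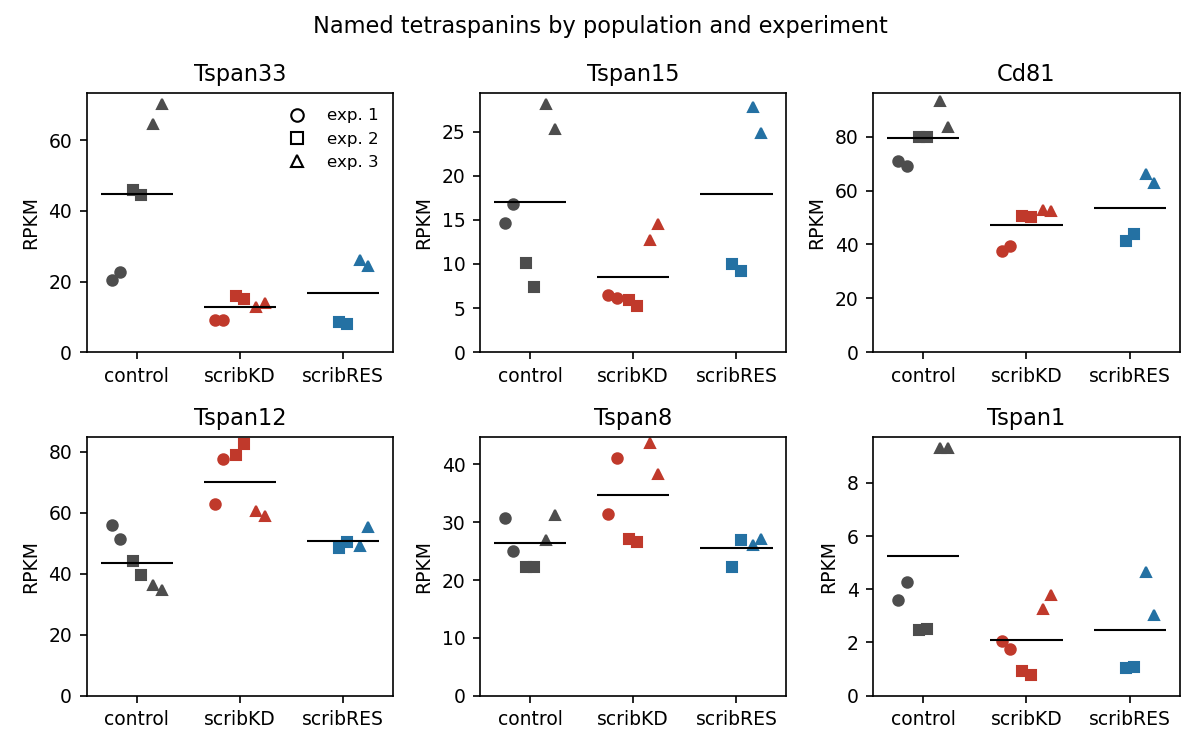
RPKM of Tspan33 and 5 other named tetraspanins in each library, by population (colour) and experiment (symbol), with horizontal lines at population means; each panel has its own vertical axis starting at 0. Cd81 has the scribRES split of Tspan33, Tspan12 is highest in scribKD cells, and the scribRES libraries of Tspan15 are above the scribKD libraries of the same experiment.

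The protease partners could not be described, since neither of the 2 sheddases listed, nor any of 7 Notch target genes, had a named transcript. Of 18 listed ADAM10 substrates, 7 were named, all from the study's tables of changed transcripts. They are therefore not an independent sample, and their calls cannot be weighed against the share over all transcripts. Of the 7, 5 were tested in scribKD over control, where 1 rose and 1 fell beside 9.52% called over all transcripts. Both calls were lost on experiment means, with an adjusted p in limma of 0.0631 for Notch1 and 0.0752 for Cd44. Notch1, the receptor whose signalling starts with an ADAM10 cut, fell by 0.93 on the log2 scale (SE 0.15, limma, adjusted p = 0.000847), from 22.0 ± 3.92 to 11.6 ± 2.56 RPKM (SD, n = 6 each). It was also lower than control in scribRES cells, with a log2 fold change of -0.71 (limma, adjusted p = 0.00706), at 13.2 ± 0.58 RPKM (SD, n = 4). That call too was lost on experiment means, where no transcript was called in scribRES over control. For Notch1 the change of scribRES over scribKD between experiments was -0.04 (SE 0.18, limma, adjusted p = 0.888), beside 1.80 for Tspan33. Cd44, the hyaluronan receptor, rose by 0.95 (SE 0.17, limma, adjusted p = 0.00163), from 94.4 ± 25.9 to 179 ± 29.1 RPKM (SD, n = 6 each). In scribRES over scribKD 2 of 5 were called, beside 1.46% over all transcripts, and neither was called on experiment means (limma, adjusted p = 0.726 for Jag2 and 0.918 for Cx3cl1). Jag2, a Notch ligand, fell by 0.92 on the log2 scale (SE 0.14, limma, adjusted p = 0.00922). Cx3cl1, a membrane-bound chemokine, was 0.52 higher (SE 0.10, limma, adjusted p = 0.0273), a call lost without scribKD replicate 2, 4 or 5 or scribRES replicate 5 or 6, where the adjusted p was 0.0649, 0.0577, 0.0566, 0.0987 or 0.0977.

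Of 14 listed docking and junction partners 3 were named, all from the study's tables of changed transcripts, so they too are not an independent sample. Neither of the 2 tested was called in scribKD over control (limma), where 9.52% of all transcripts were. Pvrl3, the adhesion protein nectin-3, was 0.58 higher in scribRES over scribKD cells (SE 0.13, limma, adjusted p = 0.0399). This was the only call among the 3 tested there, beside 1.46% over all transcripts, and 8 of the 10 fits that left out 1 library lost it, with adjusted p of 0.064, 0.0768, 0.0578 and 0.0644 without scribKD replicates 2 to 5 and 0.0826, 0.0896, 0.12 and 0.123 without scribRES replicates 3 to 6. Of 11 listed partners of tetraspanin complexes 3 were named, also from those tables. Neither of the 2 tested, Igsf8 and Cd276, was called between populations (limma). Among epithelial markers, Krt19 fell by 0.57 in scribKD over control (SE 0.17, limma, adjusted p = 0.0243), with its call lost without control replicate 1, 5 or 6 or scribKD replicate 3 or 4 (adjusted p 0.0509, 0.0525, 0.0503, 0.0523 and 0.0498, the last with a log2 fold change of -0.47). Ocln had a log2 fold change of 0.03 (SE 0.08).

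The transcripts whose levels ran most like Tspan33 were sought among 10705 transcripts over the 16 libraries, by Pearson r of log2(RPKM + 0.1). The 6 highest were XM_533497.3 (r = 0.973), Egfl7 (r = 0.971), XM_003433272.1 (r = 0.971), Smo (r = 0.969), Palm3 (r = 0.969) and Mpv17l2 (r = 0.967). Egfl7 is a secreted protein best known from blood vessels, Smo is the Hedgehog signal transducer Smoothened, Palm3 is a paralemmin and Mpv17l2 is a mitochondrial protein. The 4 lowest were Calu (r = -0.967), Kcnk1 (r = -0.965), XM_533312.3 (r = -0.963) and Lix1l (r = -0.960), of which Calu is a calcium-binding protein of the secretory pathway and Kcnk1 a potassium channel. These are descriptions, because the libraries share populations and experiments, and 97 transcripts (0.906%) had an r above 0.9.

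After subtracting experiment means within the 12 libraries of experiments 2 and 3, all 6 stayed among the 100 highest, with r from 0.975 to 0.991. The sizes differed: Egfl7 averaged 79.1 RPKM in control, 26.2 in scribKD and 28.9 in scribRES cells, a spread like that of Tspan33, whereas XM_533497.3 averaged 36.6, 29.1 and 28.9 RPKM. Egfl7 had the scribRES split, at 17.4 RPKM in experiment 2 against 34.5 RPKM in scribKD cells, and at 40.4 against 28.1 RPKM in experiment 3. Selection by r over these libraries favours that split, which 9.74% of the transcripts tested in experiments 2 and 3 showed in all libraries. Cdh16, the kidney cadherin, had an r of 0.943 with Tspan33 at levels under 7 RPKM, and Cd81 an r of 0.955, while Tspan15 had an r of 0.566. For Scrib, the target of the hairpin, r with Tspan33 was 0.851.

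**Figure D5:**
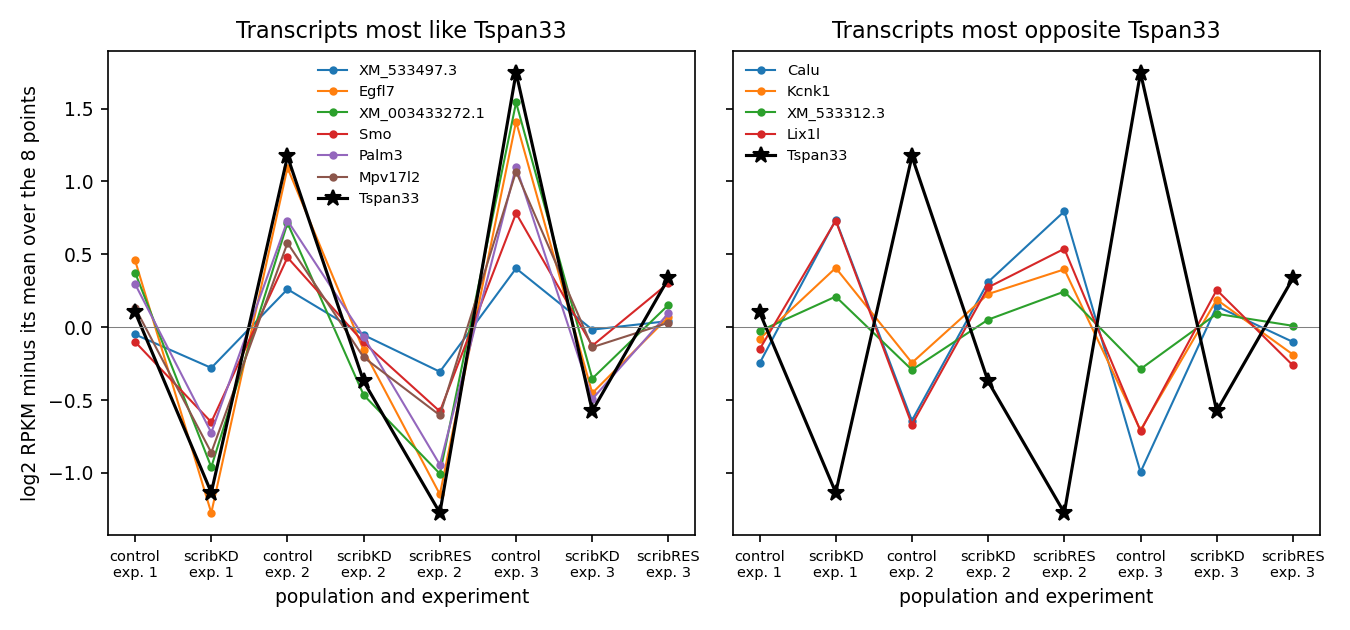
Log2 RPKM, minus its mean over the 8 points, of the 6 transcripts most like Tspan33 (left) and the 4 most opposite (right), as means of 2 libraries for each population and experiment; Tspan33 is drawn in black in both. The left panel peaks in control cells of experiment 3 and is low in scribRES cells of experiment 2, and the right panel runs the opposite way. No transcript in either panel spans as wide a range as Tspan33.

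Smo is also the gene next to Tspan33 in the order of protein-coding genes of the RefSeq dog assembly UU_Cfam_GSD_1.0, and the spans of the pair do not overlap there. It was looked at for its position after its r had been seen. Smo averaged 18.6, 27.7 and 34.2 RPKM in control cells of experiments 1, 2 and 3, and 12.7, 18.5 and 18.2 RPKM in scribKD cells. Its scribRES cells averaged 13.3 RPKM in experiment 2 and 24.5 RPKM in experiment 3, with the split of Tspan33. A high r over these libraries makes that likely. Of the 5 genes on either side, 3 others had a named transcript: Irf5 (r = 0.674), Kcp (r = 0.587) and Strip2 (r = -0.35). Those 3 lay near or below 6 RPKM on average, and TNPO3, the neighbour on the other side, had no named transcript.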

How the data were processed

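RNA from 3 populations was sequenced as short single reads. The authors filtered reads by quality, mapped them with TopHat2 2.0.6 to the dog genome CanFam3.1 (cutadapt 1.0 is also named in the submitters' processing notes), and deposited RPKM for 21571 transcripts in each of 17 runs. RPKM are divided by each run's total, so a few abundant transcripts can shift all others. How reads shared between transcripts, or strand, were counted is not given in the sources used here.

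Within a transcript the RPKM of all runs were whole multiples of 1 step. Whole reads and totals were recovered from these steps, up to a common factor, for 18873 transcripts (tolerance 0.001 reads), while 2698 were 0 in every run. The reads were used for depth and for exact 95% Poisson intervals.

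Fits used limma 3.58.1 in R 4.3.3 (lmFit, eBayes with trend) on log2(RPKM + 0.1), which understates changes of low transcripts. Tests were two-sided with Benjamini-Hochberg adjustment over all tested transcripts. Tested transcripts exceeded 5 RPKM in all replicates of 1 or both conditions, with the highest no more than 2 times the lowest there. For the 2 comparisons between experiments, the same filter was applied to each of the 3 populations over experiments 2 and 3 together. A transcript entered those only if at least 1 population stayed within 2-fold across both experiments, so the shares called hold for transcripts filtered in that way. Calls needed an adjusted p below 0.05 with a log2 fold change beyond 0.5 either way. The fits were tested on simulated data in which libraries varied independently, without the shared differences between experiments seen here. That test therefore does not cover the effect of such differences on the calls. Python 3.11.15 was used elsewhere.

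The labels give an experiment number that libraries share. Deviations from population means correlated within an experiment: same-numbered libraries had a mean r of 0.64 for scribKD and control (lowest 0.333), 0.383 for scribRES and scribKD (lowest 0.128) and 0.416 for scribRES and control (lowest 0.115). Libraries of the same experiment with the other number had 0.732, 0.387 and 0.416, so the number showed no pairing beyond the experiment. Libraries of other experiments had -0.341, -0.193 and -0.209. Subtracting population means itself pushes these last values below 0, so they are not a neutral baseline. Transcripts called rose from 151 to 757 in scribRES over scribKD and from 815 to 1513 in scribRES over control with experiment as a block.

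Tspan33 and the gene lists were chosen with earlier results of these data known. Named were Tspan33, every listed tetraspanin, other listed genes called in any comparison, and the 6 transcripts most like and 4 most unlike Tspan33. Symbols were found for 1978 transcripts (9.2%), 1388 and 183 of them from the study's tables and 407 from a RefSeq table by accession and version. Genes near Tspan33, and the change of scribRES over scribKD between experiments, were added after its values were seen. From the RefSeq table, of another assembly than the files, only gene order and the overlap of neighbouring genes were taken, and no sequence was used.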

Additional observations from a re-analysis of the deposited data

Results flagged for a closer look

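The difference between scribRES and scribKD cells went opposite ways in experiments 2 and 3 for Tspan33, with a log2 fold change 1.80 higher in experiment 3 (SE 0.11). This was noticed in the values themselves and was not tested. In limma, where each experiment enters once, 7 other listed genes were called for this change. It was higher in experiment 3 for Egf, a growth factor precursor, by 0.89 (SE 0.16, limma, adjusted p = 0.00152), for Cd81 by 0.54 (adjusted p = 0.000821), for Igsf8, a partner of tetraspanins, by 0.51 (adjusted p = 0.00758), for Tspan12 by 0.51 (adjusted p = 0.00295) and for Cx3cl1 by 0.51 (adjusted p = 0.00945). It was lower for Cgnl1, the junction protein paracingulin, at -2.42 (SE 0.23, limma, adjusted p = 2.89e-05), and for Cd44, at -0.55 (adjusted p = 0.0134). Among all transcripts tested 18% were called. Besides Tspan33, the listed transcripts tested were 3 tetraspanins, 3 docking partners, 6 ADAM10 substrates, 2 partners of tetraspanin complexes and 2 epithelial markers. Most were named from the study's tables of changed transcripts, so their calls cannot be weighed against that share. After median-ratio scaling Cd81 (0.48), Igsf8 (0.46), Tspan12 (0.45) and Cx3cl1 (0.45) were under the limit of 0.5, and with a pseudocount of 1 so were Igsf8 (0.49) and Tspan12 (0.499). Leaving out 1 library lost the call of Igsf8 without scribKD replicate 3 (0.42) or 5 (0.43), of Cx3cl1 without scribKD replicate 3 (0.42) or 5 (0.45) or scribRES replicate 4 (0.496) or 6 (0.49), and of Tspan12 without scribKD replicate 4 (0.48) or 6 (0.49) or scribRES replicate 3 (0.48) or 6 (0.42). It also lost the call of Cd81 without scribRES replicate 3 (0.49) and of Cd44 without scribKD replicate 5 (-0.44) or scribRES replicate 4 (-0.46). By the gap of the highest or lowest library to the rest, no library stood apart in 69 groups examined over Tspan33 and the listed genes. This gap looks for single libraries. It cannot mark 2 libraries of an experiment that lie apart together, as those of Tspan33 did in scribRES cells.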

How the results depend on the processing

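Tspan33 moved by less than 1 SD of its libraries under every alternative for the 3 population differences. That is a wide limit, because the SD includes the differences between experiments: on the log2 scale it was 0.75 in control, 0.35 in scribKD and 0.92 in scribRES cells. Leaving out each library gave log2 fold changes from -1.89 to -1.53 for scribKD over control, -1.75 to -1.19 for scribRES over control and -0.06 to 0.51 for scribRES over scribKD. The range was 0.53 to 0.78 for experiment 3 over experiment 2, and 1.74 to 1.86 for the change of scribRES over scribKD between experiments. The size of the Tspan33 fall was -1.69 on experiment means too, but there Tspan33 would not have been among the called transcripts. Counts of called transcripts depended more on the settings. From 923 in scribKD over control they went to 199 on experiment means, with 0 other tetraspanins called there in place of 2 (1603 transcripts had an unadjusted p under 0.05). From 151 in scribRES over scribKD they went to 757 with experiment as the replicate block, 404 with the numbers 1 to 6 as the block, 314 with experiments 2 and 3 only and 0 on experiment means (463 with an unadjusted p under 0.05 in limma), and ranged from 51 to 227 when 1 library was left out; other tetraspanins called ranged from 0 to 1. From 815 in scribRES over control they went to 1513 with the experiment block and 0 on experiment means (1153 with an unadjusted p under 0.05 in limma), and ranged from 474 to 1026 when 1 library was left out, with 827 to 1029 in scribKD over control. Experiment means leave 3 or fewer values per population; the other causes were not tested. With the number within an experiment as the replicate block, Tspan33 in experiment 3 over experiment 2 kept its value of 0.66 (adjusted p = 0.0335). For the listed genes 1035 of the alternative fits kept a call or its absence, 35 lost a call and 14 gained one. No called difference changed direction. Some differences near 0 that were not called did change sign, as for Ocln in scribKD over control, from -0.006 to 0.07 when 1 library was left out. Of the 6 transcripts most like Tspan33, 2 were among the 6 highest by Spearman rho and 2 within experiments.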

Other observations

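Ranked within experiments 2 and 3 alone, Bmp4, a secreted growth factor, ran as closely with Tspan33 as any transcript but 1 (r = 0.994 after subtracting experiment means), although over the 16 libraries its r was 0.538. Bmp4 averaged 72.4, 83.6 and 48.5 RPKM in control cells of experiments 1, 2 and 3, where Tspan33 climbed. Its scribRES cells were below scribKD cells in experiment 2, at 34.2 against 45.3 RPKM, and above in experiment 3, at 28.7 against 21.8 RPKM. Ranking by r within these experiments favours transcripts with that switch. Fcgrt, the neonatal Fc receptor, had the highest r within experiments, 0.994, and 0.961 over the 16 libraries.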
